A study of Homo sapiens with 9 samples.

Results

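The expression of 10 genes of the cornified envelope and of squamous differentiation was followed in breast epithelial cells after CRISPR targeting of TRAM2. The 10 genes were chosen by name, with earlier results of these data known. They were the envelope precursors IVL, SPRR1A, SPRR1B and SPRR3, the crosslinking enzyme TGM1, the arginine-modifying enzymes PADI1 and PADI2, the protease inhibitors A2ML1 and PI3, and the cytoskeletal linker EPPK1. All 10 had transcripts among the 57797 gene symbols measured. The libraries, made from poly(A) RNA of MCF10A-YAP cells, formed 3 groups of 3, namely TRAM2-KO2, TRAM2-KO1 and control. MCF10A is an immortalised, non-transformed breast epithelial line, and its derivative MCF10A-YAP makes an excess of constitutively active YAP, a transcription coactivator. All 3 groups carried it. TRAM2-KO2 and TRAM2-KO1 cells received 1 of 2 single guide RNAs (sgRNAs) against TRAM2, a component of the translocon of the endoplasmic reticulum, and control cells a non-targeting sgRNA. These groups follow the labels of the samples, with which the series' own design text, which speaks of overexpressed TRAM2 or YAP against an empty vector, does not match. RNA was taken after antibiotic selection, and no cloning of single cells is described in the sources used here. The 3 libraries of a group are named A, B and C. The sample labels do not say whether they came from separate cultures, so p values measure the spread between these libraries.

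The cornified envelope is a protein shell that replaces the plasma membrane of keratinocytes when stratified squamous epithelium completes its differentiation. Involucrin (IVL) is laid down early as a scaffold under the membrane, small proline-rich proteins (SPRRs) bridge the growing network, and transglutaminases such as TGM1 join these proteins by bonds between glutamine and lysine side chains. Peptidylarginine deiminases (PADIs) convert arginine to citrulline in keratins and other proteins, secreted inhibitors restrain the proteases of the outer layers, and plakins tie the envelope to keratin filaments. Mammary epithelium in culture is not stratified, but MCF10A cells have many basal traits and express part of this programme.

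Promoter windows of 300 bases, from 250 before to 50 after the start site, were taken from a set of RefSeq promoters (GRCh38.p14). The set held a window for 7 of the 10 genes and none for TGM1, EPPK1 and PI3. Because AP-1 and the YAP partner TEAD are known regulators of epithelial genes, the windows were searched on both strands for the AP-1 letters TGANTCA and the TEAD letters CATTCC, which read GGAATG on the other strand. AP-1 letters stood in the windows of IVL, SPRR1A, SPRR1B and SPRR3, against 7.71% of 35116 RefSeq promoters. TEAD letters stood in those of SPRR1A, SPRR1B and SPRR3 and at a second RefSeq start of A2ML1, against 14.03% of all promoters. Neither was found in these windows of PADI1 or PADI2 or at the main start of A2ML1. Shown here, 5′ to 3′ with matches in capitals, are the windows of PADI2 and A2ML1, the genes with the most stable increases in TRAM2-KO2 cells, and for comparison those of IVL, whose level in TRAM2-KO2 and control cells overlapped, and of SPRR1B, which was barely detected.
PADI2 (chr1:17119402-17119701, minus strand): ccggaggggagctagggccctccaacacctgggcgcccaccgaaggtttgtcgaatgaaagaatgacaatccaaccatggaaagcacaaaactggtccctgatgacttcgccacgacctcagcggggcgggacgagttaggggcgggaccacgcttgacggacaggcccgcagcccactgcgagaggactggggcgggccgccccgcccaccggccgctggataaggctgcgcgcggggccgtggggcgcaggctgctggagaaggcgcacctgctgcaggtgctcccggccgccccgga
A2ML1 (chr12:8822371-8822670, plus strand): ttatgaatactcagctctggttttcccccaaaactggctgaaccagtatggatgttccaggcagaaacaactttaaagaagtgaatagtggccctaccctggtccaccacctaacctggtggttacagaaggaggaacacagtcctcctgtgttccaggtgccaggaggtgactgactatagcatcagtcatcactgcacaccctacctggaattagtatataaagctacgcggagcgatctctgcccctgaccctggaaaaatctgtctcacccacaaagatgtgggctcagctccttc
IVL (chr1:152908296-152908595, plus strand): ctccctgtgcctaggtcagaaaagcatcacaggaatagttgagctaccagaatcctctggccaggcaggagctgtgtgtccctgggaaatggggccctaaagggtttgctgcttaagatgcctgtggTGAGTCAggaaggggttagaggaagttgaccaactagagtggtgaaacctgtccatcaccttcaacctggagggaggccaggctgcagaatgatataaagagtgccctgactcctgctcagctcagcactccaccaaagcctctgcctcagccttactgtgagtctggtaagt
SPRR1B (chr1:153030953-153031252, plus strand): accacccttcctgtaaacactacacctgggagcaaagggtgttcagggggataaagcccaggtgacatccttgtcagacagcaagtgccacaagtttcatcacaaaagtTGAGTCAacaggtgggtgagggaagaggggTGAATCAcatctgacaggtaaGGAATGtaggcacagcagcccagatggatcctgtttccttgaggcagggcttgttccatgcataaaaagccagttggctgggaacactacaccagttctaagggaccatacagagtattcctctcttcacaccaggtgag
In SPRR1B the AP-1 letters began 141 and 111 bases upstream of the start and the TEAD letters 90 bases upstream, while the single AP-1 match of IVL began 123 bases upstream. SPRR1A had its matches 108 and 87 bases upstream and SPRR3 170 and 91 bases upstream. A match is a description of the letters, and binding was not measured.

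The libraries held between 21.7 and 27.6 M estimated reads, and 15109 genes had enough reads to be tested. TRAM2 itself (chromosome 6, 52362206 to 52441858, minus strand, GRCh37) was at 216, 212 and 210.5 CPM (counts scaled to a common library size) in TRAM2-KO2 libraries A, B and C and at 219, 209.9 and 203 CPM in TRAM2-KO1, against 481, 464 and 475 CPM in control. Its log2 fold change was -1.16 (SE 0.03, adjusted p = 1.6e-09) with TRAM2-KO2 and -1.17 (SE 0.03, adjusted p = 1.45e-09) with TRAM2-KO1, and the guides differed by 0.01 (95% interval -0.06 to 0.08). Libraries B and C of TRAM2-KO1 stood apart: Spearman's rho across genes between a library's deviation and gene GC content was -0.53 and -0.36 in them, 0.18 in TRAM2-KO1 library A, between -0.09 and 0.40 in TRAM2-KO2 and between 0.14 and 0.25 in control. Over the 3964 tested genes with a GC content of at least 55%, the median log2 fold change was -0.01 with TRAM2-KO2, -0.13 with TRAM2-KO1 and 0.12 for TRAM2-KO2 against TRAM2-KO1. Of the 7 of the 10 genes that were tested, IVL, TGM1, PADI1 and EPPK1 have a GC content above that (58.7%, 58.7%, 56.1% and 62.8%), against a median of 47.6% for all genes. The TRAM2-KO1 values of these 4 genes are given also after removal of the GC trend and with TRAM2-KO1 library A alone, a setting chosen after the data were seen.

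Compared per transcript length, in TPM (which also scales reads to transcript length), the 10 genes covered a wide range of levels. PI3 stood highest, with 239 to 269.96 TPM in TRAM2-KO2, 181 to 202 TPM in TRAM2-KO1 and 183 to 199 TPM in control. IVL came next (36.0 to 38.5 TPM in TRAM2-KO2, 31.1 to 33.0 TPM in TRAM2-KO1 and 35.6 to 36.3 TPM in control). TGM1 followed with 17.6 to 19.5, 13.01 to 16.2 and 15.9 to 17.0 TPM in the same groups. A2ML1 had 15.1 to 16.5 TPM in TRAM2-KO2, 9.71 to 10.0 TPM in TRAM2-KO1 and 10.4 to 11.4 TPM in control. These 4 genes did not overlap in any group. PADI2 and PADI1 came after them: in control PADI2 had 1.82 to 2.04 TPM and PADI1 1.75 to 1.85 TPM, which overlap, whereas in TRAM2-KO2 PADI2 had 3.76 to 4.10 TPM and PADI1 1.78 to 2.23 TPM, which do not. SPRR1B (0.777 to 1.32 TPM in TRAM2-KO2, 0.323 to 0.828 TPM in TRAM2-KO1 and 0.244 to 0.605 TPM in control) and EPPK1 (0.235 to 0.367, 0.113 to 0.175 and 0.177 to 0.236 TPM) were low, and SPRR3 and SPRR1A were at or near 0. The order by TPM depends on the transcript models that were quantified, since EPPK1 was counted on a model of 16002 nt and SPRR1A on one of 270 nt.

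**Figure D1:**
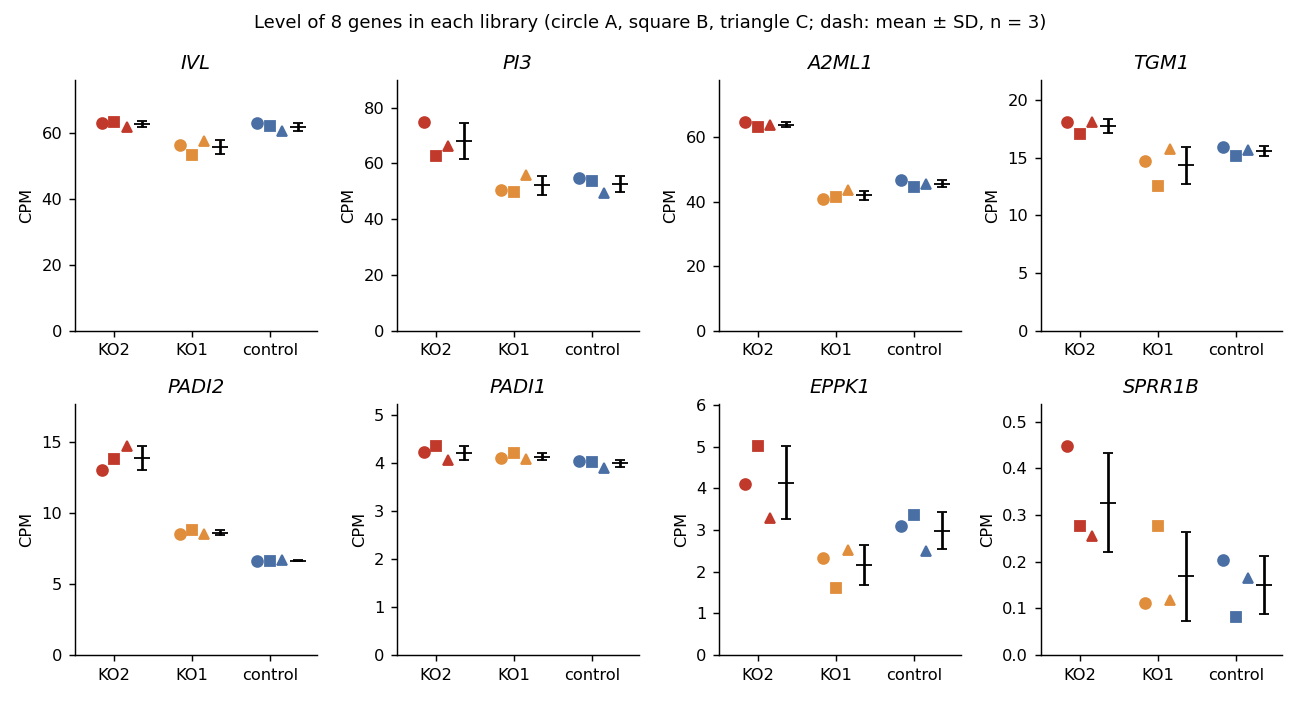
Level of 8 of the genes in CPM (vertical axes starting at 0), with 1 point for each library of TRAM2-KO2 (red), TRAM2-KO1 (orange) and control (blue), and the mean with its SD over 3 libraries as a black bar. PADI2 stepped up in both guide groups, A2ML1 and PI3 were higher in TRAM2-KO2 alone, and IVL was lowest in TRAM2-KO1. SPRR1A and SPRR3 are left out because they had at most 1 read in a library.

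Of the 10 genes, 7 passed the filter on low counts and were tested. SPRR1A, SPRR1B and SPRR3 did not, because they were low in every group. With TRAM2-KO2, 3 of the 7 rose (PADI2, A2ML1 and PI3) and none fell, while 1.87% of all genes tested rose and 2.52% fell. With TRAM2-KO1, 1 of the 7 rose (PADI2) and none fell, beside 0.821% and 2.15% of all genes. For the mean of both guides against control, 2 of the 7 rose (PADI2 and A2ML1) and none fell, beside 1.48% and 2.48% of all genes. Directly between the guides, 5 of the 7 were higher in TRAM2-KO2 than in TRAM2-KO1 (IVL, PADI2, A2ML1, EPPK1 and PI3) and none was lower, beside 1.53% and 1.03% of all genes. The median log2 fold change of the 7 was 0.37 with TRAM2-KO2, -0.12 with TRAM2-KO1 and 0.38 between the guides, and over all genes it was within 0.01 of 0 in each of these comparisons. Tests were edgeR's quasi-likelihood tests with a Benjamini-Hochberg adjustment over all genes, at an adjusted p under 0.05, and the comparisons share libraries. Because the genes were chosen with earlier results of these data known, the counts are descriptions and the shares of all genes a comparison only.

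**Figure D2:**
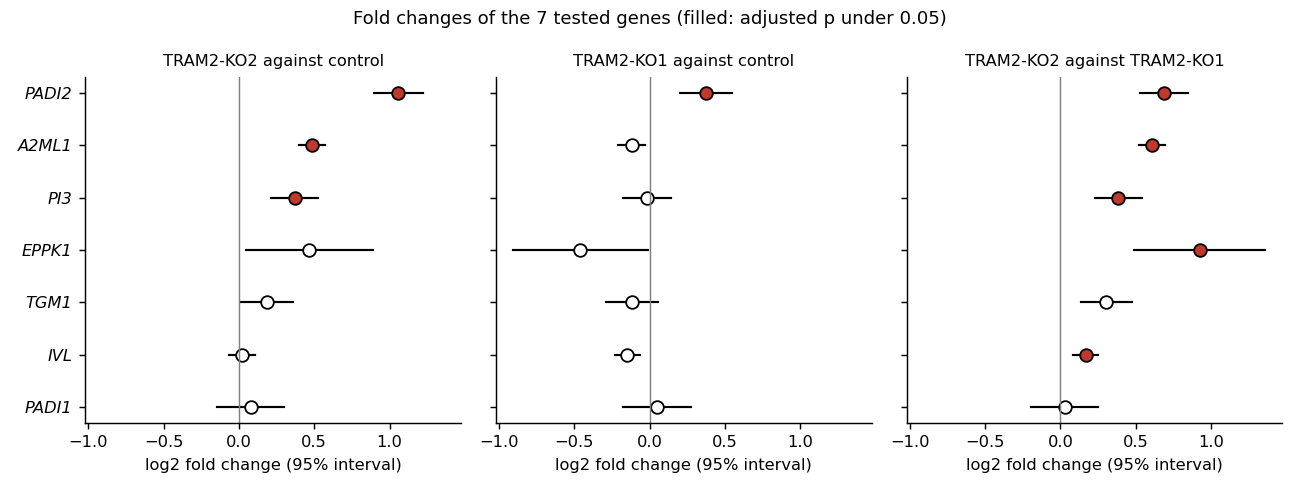
Log2 fold change (horizontal axes) of the 7 tested genes in the comparisons of each guide with control and of TRAM2-KO2 with TRAM2-KO1, with 95% intervals as lines and filled points for an adjusted p under 0.05. Filled points lie to the right of 0 in all 3 panels: 3 genes with TRAM2-KO2, 1 with TRAM2-KO1 and 5 between the guides.

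PADI2, a calcium-dependent deiminase found in many tissues including mammary epithelium, was the only one of the genes that rose with both guides. Its gene lies on chromosome 1 (17393256 to 17445946, minus strand, GRCh37), and 96.0% of its reads fell on the 16-exon transcript ENST00000375486. PADI2 was at 12.996, 13.8 and 14.7 CPM in TRAM2-KO2 libraries A, B and C and at 8.47, 8.78 and 8.52 CPM in TRAM2-KO1, against 6.61, 6.60 and 6.68 CPM in control. All 3 TRAM2-KO2 libraries thus lay above all TRAM2-KO1 libraries, and these above all control libraries. The log2 fold change was 1.06 (SE 0.08, adjusted p = 5.45e-06) with TRAM2-KO2, a 2.08-fold increase, and 0.37 (SE 0.08, adjusted p = 0.0223) with TRAM2-KO1, a 1.29-fold increase. The step between the guides was itself past the threshold, at 0.69 (SE 0.07, adjusted p = 0.000397). The TRAM2-KO2 increase passed in all 20 alternative settings tried, at log2 fold changes between 1.01 and 1.10. The smaller TRAM2-KO1 increase passed in 10 of 20, with adjusted p values between 0.00843 and 0.329: it did not pass with DESeq2 (0.063) or without any single control library, TRAM2-KO1 library B or TRAM2-KO1 library C (0.35 to 0.37, adjusted p between 0.0692 and 0.105), and with TRAM2-KO1 library A alone it was 0.35 (adjusted p = 0.307), whereas with the GC trend removed it was 0.42 (adjusted p = 0.00843).

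PADI1, the deiminase known best from the upper epidermis, is encoded next to PADI2 (chromosome 1, 17531623 to 17572502, plus strand) and did not pass the test with either guide. It was at 4.22, 4.35 and 4.05 CPM in TRAM2-KO2 and 4.09, 4.20 and 4.09 CPM in TRAM2-KO1, against 4.04, 4.02 and 3.89 CPM in control. The libraries of each guide lay narrowly above those of control, but the differences of 0.08 (95% interval -0.15 to 0.30, adjusted p = 0.864) and 0.05 (95% interval -0.17 to 0.28, adjusted p = 0.86) on the log2 scale did not pass the test. The TRAM2-KO1 value was 0.13 (adjusted p = 0.685) with the GC trend removed and 0.03 (adjusted p = 0.987) with TRAM2-KO1 library A alone. Most PADI1 reads were not assigned to its coding transcript: 57.1% fell on ENST00000648847 and 13.5% on ENST00000460293, both annotated as retaining an intron, and 29.5% on the coding ENST00000375471. The coding transcript had 37.9, 26.1 and 45.0 estimated reads in TRAM2-KO2 and 32.7, 11.2 and 37 in TRAM2-KO1, against 23.5, 30.4 and 31.1 in control. These ranges overlap.

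The protease inhibitors A2ML1 and PI3 were higher with TRAM2-KO2, and neither passed the test with TRAM2-KO1. A2ML1, a relative of alpha-2-macroglobulin that traps proteases and is secreted by differentiating keratinocytes, was at 64.9, 63.3 and 63.7 CPM in TRAM2-KO2 and 40.9, 41.5 and 43.5 CPM in TRAM2-KO1, against 46.8, 44.6 and 45.4 CPM in control. The TRAM2-KO2 libraries lay above all others and the TRAM2-KO1 libraries below all others. The log2 fold change of A2ML1 was 0.49 (SE 0.04, adjusted p = 1.3e-05) with TRAM2-KO2, a 1.40-fold increase, and -0.12 (SE 0.04, adjusted p = 0.155) with TRAM2-KO1. The difference between the guides was 0.61 (SE 0.04, adjusted p = 4.06e-05). Both the TRAM2-KO2 increase and the difference between the guides passed in all 20 alternatives, including the GC trend removed (0.49 and 0.61) and TRAM2-KO1 library A alone (0.49 and 0.65). The mean of both guides also passed, at 0.18 (SE 0.04, adjusted p = 0.00921), but averages values of opposite sign. A2ML1 spans chromosome 12, 8975217 to 9039597 (plus strand), and 94.6% of its reads fell on the 36-exon transcript ENST00000299698. The lncRNAs A2ML1-AS1 and ENSG00000282022, annotated on the opposite strand, had at most 1 and 2 reads in a library.

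PI3 encodes elafin, a small elastase inhibitor with a tail that transglutaminases can attach to other proteins (chromosome 20, 43803543 to 43805185, plus strand, 3 exons). It was at 75.0, 62.6 and 66.4 CPM in TRAM2-KO2 and at 50.4, 49.9 and 55.9 CPM in TRAM2-KO1, against 54.7, 53.8 and 49.5 CPM in control. The TRAM2-KO2 libraries did not overlap with the others, while TRAM2-KO1 and control overlapped. The log2 fold change was 0.37 (SE 0.07, adjusted p = 0.0137) with TRAM2-KO2, -0.02 (SE 0.07, adjusted p = 0.933) with TRAM2-KO1 and 0.38 (SE 0.07, adjusted p = 0.0186) between the guides. The TRAM2-KO2 increase passed in 17 of 20 alternatives (adjusted p between 8.19e-07 and 0.0745) and was lost without control library B (0.38, adjusted p = 0.055), without control library C (0.33, adjusted p = 0.067) and with transcript length offsets. The difference between the guides passed in 15 of 20 (adjusted p between 3.14e-07 and 0.152). It was 0.44 with TRAM2-KO1 library A alone (adjusted p = 0.152) and 0.36 without TRAM2-KO1 library B (adjusted p = 0.070), both past the threshold no longer, and 0.34 (adjusted p = 0.0247) with the GC trend removed.

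Among the envelope precursors only IVL was well expressed. IVL, a single transcript of 2 exons on chromosome 1 (152881022 to 152884362, plus strand), was at 63.0, 63.5 and 61.9 CPM in TRAM2-KO2 and 56.4, 53.5 and 57.6 CPM in TRAM2-KO1, against 62.9, 62.1 and 60.6 CPM in control. TRAM2-KO2 overlapped with control, at a log2 fold change of 0.02 (95% interval -0.06 to 0.10, adjusted p = 0.902). All TRAM2-KO1 libraries lay below all control libraries, at -0.15 (SE 0.04, adjusted p = 0.0675), which did not pass the test. The difference between the guides was 0.17 (SE 0.04, adjusted p = 0.0431). That call passed in 5 of 20 alternatives, with adjusted p values between 0.00505 and 0.634, and was lost without any single library other than TRAM2-KO1 A (0.14 to 0.20). With the GC trend removed the difference was 0.05 (adjusted p = 0.634) and the TRAM2-KO1 value -0.02 (adjusted p = 0.863). With TRAM2-KO1 library A alone, which does not carry that trend, they were 0.16 (adjusted p = 0.220) and -0.14 (adjusted p = 0.376). A lncRNA annotated on the opposite strand over the whole of IVL, ENSG00000289062, was not among the transcripts used here.

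The 3 SPRR genes, which lie with IVL in the epidermal differentiation complex of chromosome 1, were barely detected. SPRR1B (153003679 to 153005376) had 12, 7 and 7 reads in TRAM2-KO2 and 3, 6 and 3 in TRAM2-KO1, against 5, 2 and 4 in control. Summed over libraries these were 26 reads in TRAM2-KO2 (exact Poisson 95% interval 17.0 to 38.1), 12 in TRAM2-KO1 (6.20 to 21.0) and 11 in control (5.49 to 19.7), intervals that cover counting error only. TRAM2-KO2 lay above control in every library, but without the filter the log2 fold change of 1.11 (SE 0.60, adjusted p = 0.634) did not pass, nor did 0.11 (SE 0.67) with TRAM2-KO1. SPRR3 (152974223 to 152976332) had 0, 1 and 1 reads in TRAM2-KO2 and 0 in each library of TRAM2-KO1 and control. SPRR1A (152956557 to 152958290) had 0 reads in all 9 libraries, where a count of 0 allows up to 3 reads, or 0.109 to 0.139 CPM. SPRR1A and SPRR1B share 92 stretches of 31 bases, 15.6% of those in SPRR1B, so reads could be split between them. With no read on SPRR1A, summing the pair gave the SPRR1B values.

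TGM1, the membrane-anchored transglutaminase that crosslinks the envelope, was at 18.1, 17.0 and 18.1 CPM in TRAM2-KO2 and 14.7, 12.6 and 15.8 CPM in TRAM2-KO1, against 15.95, 15.1 and 15.7 CPM in control. The TRAM2-KO2 libraries lay above all others, while TRAM2-KO1 overlapped with control. The log2 fold change was 0.19 (SE 0.08, adjusted p = 0.279) with TRAM2-KO2, -0.12 (SE 0.08, adjusted p = 0.467) with TRAM2-KO1 and 0.31 (SE 0.08, adjusted p = 0.064) between the guides, and none passed. The difference between the guides passed in 3 of 20 alternatives (adjusted p between 0.00311 and 0.271), among them without TRAM2-KO1 library A (0.32, adjusted p = 0.0309). It was 0.19 (adjusted p = 0.191) with the GC trend removed and 0.28 (adjusted p = 0.237) with TRAM2-KO1 library A alone. The TRAM2-KO1 value was 0.00366 (adjusted p = 0.992) with the trend removed and -0.09 (adjusted p = 0.904) with library A alone. TGM1 lies on chromosome 14 (24718320 to 24733638, minus strand), and its reads were spread over several coding transcripts. The shorter ENST00000544573 (1581 nt) took 56.5% of them in TRAM2-KO2 and 58.4% in TRAM2-KO1, against 57.0% in control, and the 15-exon ENST00000206765 took 18.7% in TRAM2-KO2, 15.6% in TRAM2-KO1 and 16.5% in control.

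EPPK1 encodes epiplakin, a plakin that binds keratin filaments (chromosome 8, 144939497 to 144952635, minus strand). It had 110, 127 and 90 reads in TRAM2-KO2 and 63, 35 and 65 in TRAM2-KO1, against 76, 82 and 61 in control. In CPM these were 4.11, 5.02 and 3.28 in TRAM2-KO2 and 2.32, 1.62 and 2.53 in TRAM2-KO1, against 3.10, 3.36 and 2.50 in control. TRAM2-KO2 lay above TRAM2-KO1 in every library, and each guide overlapped with control. The guides' log2 fold changes had opposite signs, at 0.47 (SE 0.19, adjusted p = 0.273) with TRAM2-KO2 and -0.46 (SE 0.21, adjusted p = 0.268) with TRAM2-KO1. The difference between them, 0.93 (SE 0.20, adjusted p = 0.032), was the widest of the 7 and the least precise. It passed in 8 of 18 alternatives, with adjusted p values between 9.45e-06 and 0.264. It was 0.74 (adjusted p = 0.0258) with the GC trend removed and 0.83 (adjusted p = 0.225) with TRAM2-KO1 library A alone, and was lost without control library A or B, TRAM2-KO1 library B or C, or TRAM2-KO2 library A or B (0.77 to 1.06, adjusted p between 0.0533 and 0.158). The TRAM2-KO1 value was -0.25 (adjusted p = 0.557) with the trend removed and -0.37 (adjusted p = 0.832) with library A alone. EPPK1 shares 149 stretches of 31 bases with the related plakin gene PLEC, 1.94% of its own, so a few reads could have been assigned to either.

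**Figure D3:**
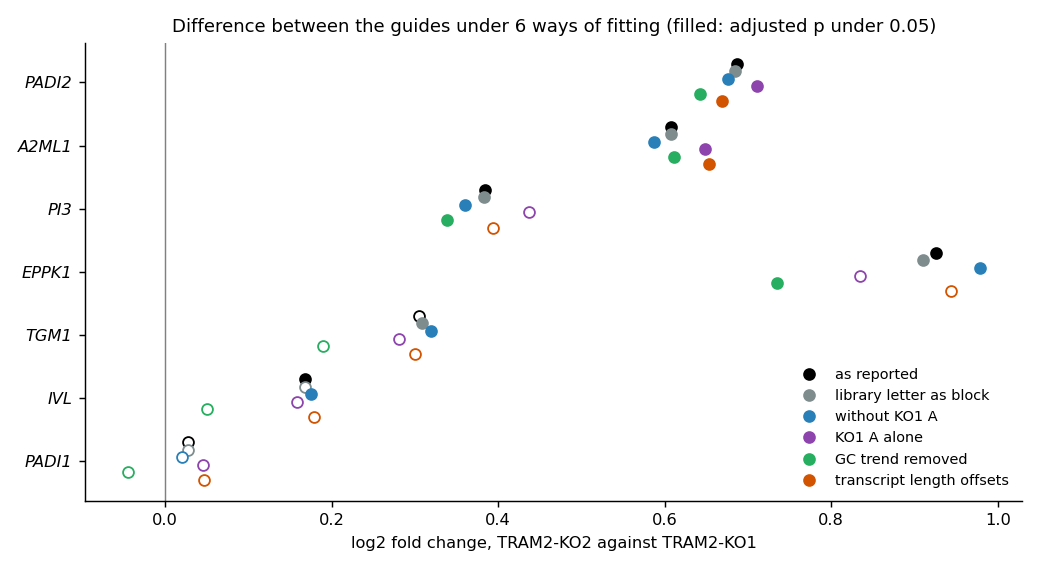
Log2 fold change of TRAM2-KO2 against TRAM2-KO1 (horizontal axis) for the 7 tested genes under 6 ways of fitting, with filled circles for an adjusted p under 0.05. PADI2 and A2ML1 stayed filled in all 6, and IVL moved to 0.05 with the GC trend removed (green). TGM1, EPPK1 and PI3 stayed right of 0, filled in some settings and open in others.

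Read by libraries, 5 of the 7 tested genes had all TRAM2-KO2 libraries above all control libraries (TGM1, PADI1, PADI2, A2ML1 and PI3), as had 11.3% of all genes tested, and none had them below. With TRAM2-KO1, 2 lay above control (PADI1 and PADI2, beside 11.9% of all genes) and 2 below (IVL and A2ML1, beside 11.1%). TRAM2-KO2 lay above TRAM2-KO1 for 6 of the 7, all but PADI1, as for 9.52% of all genes. Across the 9 libraries, log2 CPM of A2ML1 went with that of PI3 (Pearson's r = 0.92) and IVL with EPPK1 (r = 0.90), while r was -0.01 between IVL and PADI1. The genes outside the lists whose log2 CPM was most like that of each well expressed member, among 10289 genes, were FAM83D (r = 0.99) and ALDH1A3 (0.98) for PADI2, C1orf116 (0.99) and ESRP1 (0.98) for A2ML1, RCC2 (0.97) and C1orf116 (0.95) for PI3, CDR2L and UBTF (both 0.98) for IVL, and BID (0.96) and GTF3C1 (0.94) for TGM1. These r are descriptions over 9 libraries, which share their groups, their depth and, in TRAM2-KO1, the trend with GC content.

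The rest of the squamous programme was followed in 10 further lists of 150 genes, 68 of which were tested. For comparison with the counts in these lists, 1.87% of all genes tested rose and 2.52% fell with TRAM2-KO2. With TRAM2-KO1, 0.821% rose and 2.15% fell. Envelope precursors other than the 4 above were low as well, though some lay above the SPRR genes: of 37, 20 had no read in any library and 6 were tested (FLG, TCHHL1, SPRR2D, LCE3D, CNFN and SBSN), none of which passed the test with either guide. CNFN, cornifelin, was at 4.20 to 8.20 TPM in TRAM2-KO2, 3.41 to 4.91 TPM in TRAM2-KO1 and 4.25 to 7.63 TPM in control. The summed level of the 37 was 12.6 to 19.4 TPM in TRAM2-KO2, 12.2 to 13.7 TPM in TRAM2-KO1 and 12.4 to 16.9 TPM in control. The proteins that line the cell periphery were abundant in sum (5232 to 5537 TPM in TRAM2-KO2, 5222 to 5346 TPM in TRAM2-KO1 and 5311 to 5380 TPM in control). Of 8 tested, periplakin (PPL), a partner of involucrin under the membrane, rose with TRAM2-KO2 (log2 fold change 0.56, SE 0.10, adjusted p = 0.00844), and none passed with TRAM2-KO1. Neither of the 2 other transglutaminases tested, TGM2 and TGM4, passed with either guide. Of the other PADIs, PADI4, known from granulocytes, was the one tested, and rose with TRAM2-KO2 (1.27, SE 0.31, adjusted p = 0.0409) at a mean of 0.891 ± 0.082 CPM in TRAM2-KO2 and 0.44 ± 0.14 CPM in TRAM2-KO1, against 0.368 ± 0.11 CPM in control (SD, n = 3 each). That PADI4 call passed in 8 of 18 alternatives and was lost without any single control or TRAM2-KO2 library or without TRAM2-KO1 library C (1.05 to 1.43, adjusted p between 0.0584 and 0.171).

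Inhibitors and proteases differed between the guides in what passed. Of 10 protease inhibitors tested, 2 rose with TRAM2-KO2 and 1 with TRAM2-KO1, and none fell. SLPI, a secreted leukocyte protease inhibitor of the same family of domains as PI3, rose with both: 113 ± 1.9 CPM in TRAM2-KO2 and 89.7 ± 3.4 CPM in TRAM2-KO1, against 77.6 ± 1.5 CPM in control (SD, n = 3 each), or log2 fold changes of 0.54 (adjusted p = 4.08e-06) and 0.21 (adjusted p = 0.00797). SERPINB5 (maspin) rose with TRAM2-KO2 (0.26, adjusted p = 0.000948). Of 9 proteases tested, 1 rose with TRAM2-KO2, the desquamation protease KLK5 (0.77, SE 0.18, adjusted p = 0.0341), and 3 fell with TRAM2-KO1. The KLK5 call passed in 10 of 18 alternatives and was lost without any single control or TRAM2-KO2 library (0.63 to 0.90, adjusted p between 0.0571 and 0.152). Those that fell were the membrane serine proteases ST14 (-0.84, SE 0.10, adjusted p = 0.000562) and PRSS8 (-0.63, SE 0.07, adjusted p = 0.000468) and the lysosomal CTSD (-0.58, SE 0.09, adjusted p = 0.00844). With TRAM2-KO1 library A alone ST14, PRSS8 and CTSD were at -0.62, -0.45 and -0.39, and with the GC trend removed at -0.66, -0.43 and -0.34, all still past the threshold.

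Keratins, transcription factors and lipid genes of the programme that rose did so with TRAM2-KO2. Of 4 suprabasal keratins tested, 3 rose with TRAM2-KO2 and none passed with TRAM2-KO1. KRT13, a keratin of suprabasal layers in non-cornifying mucosa, was at 22.9 ± 3.0 CPM in TRAM2-KO2 and 12.97 ± 1.4 CPM in TRAM2-KO1, against 10.5 ± 0.26 CPM in control (SD, n = 3 each), a log2 fold change of 1.12 (SE 0.10, adjusted p = 2.97e-05) with TRAM2-KO2. Its partner KRT4 (0.50, adjusted p = 0.00317) and KRT80 (0.34, adjusted p = 0.000341) also rose, and KRT10, the keratin of cornifying epidermis, was at 0.02 (adjusted p = 0.962). Of 16 transcription factors tested, 5 rose with TRAM2-KO2, including KLF4 (0.41, adjusted p = 0.00647) and GRHL2 (0.33, adjusted p = 0.00106), regulators of epidermal differentiation and barrier. The direction of GRHL2 turned with transcript length offsets, to -0.04 (adjusted p = 0.983), and it was at 0.04 with limma on TPM (adjusted p = 0.984). With TRAM2-KO1, 1 fell, CEBPB (-0.27, adjusted p = 0.0401), which passed in 5 of 20 alternatives and was at 0.02 with the GC trend removed and -0.19 (adjusted p = 0.573) with TRAM2-KO1 library A alone. Among 9 lipid barrier genes tested, the lipid transporter ABCA12 rose with TRAM2-KO2 (0.63, adjusted p = 0.000368), and the acid sphingomyelinase gene SMPD1 fell with both guides (-0.38, adjusted p = 0.00428, with TRAM2-KO2 and -0.45, adjusted p = 0.0017, with TRAM2-KO1). Of 3 S100 genes tested, S100A14 (0.56, adjusted p = 0.000231) and S100A16 (0.15, adjusted p = 0.0236, past the threshold in 13 of 20 alternatives) rose with TRAM2-KO2. The median log2 fold change of the keratins was 0.42 with TRAM2-KO2 and 0.12 with TRAM2-KO1. That of the transcription factors was 0.21 with TRAM2-KO2 and -0.04 with TRAM2-KO1, that of the S100 genes 0.50 with TRAM2-KO2 and -0.06 with TRAM2-KO1, and that of the proteases 0.12 with TRAM2-KO2 and -0.34 with TRAM2-KO1.

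**Figure D4:**
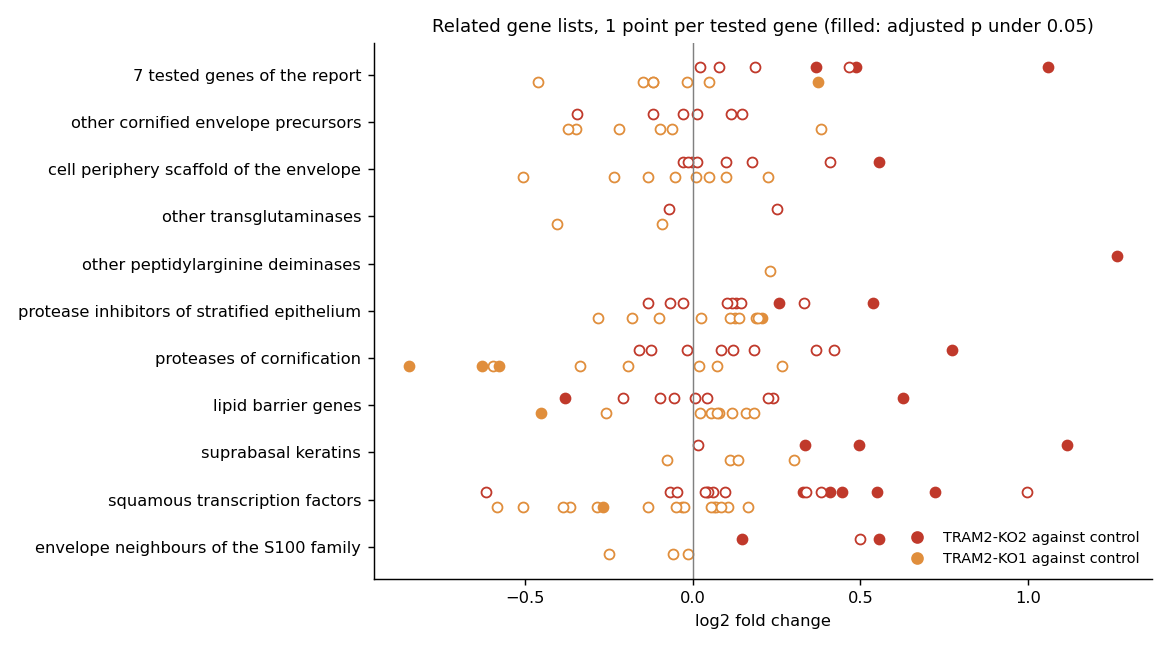
Log2 fold change (horizontal axis) of each tested gene in the lists, with TRAM2-KO2 against control in red and TRAM2-KO1 against control in orange, filled for an adjusted p under 0.05. The filled red points lie right of 0 except for SMPD1 at -0.38, and the filled orange points lie left of 0 except for PADI2 at 0.37 and SLPI at 0.21.

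Markers of other cell types were read from the same libraries. The summed level of 10 basal epithelial markers was 3114 to 3175 TPM in TRAM2-KO2, 2589 to 2651 TPM in TRAM2-KO1 and 3034 to 3115 TPM in control. Of 9 tested, 4 rose and 2 fell with TRAM2-KO2 (1.87% and 2.52% of all genes), and 3 fell with TRAM2-KO1 (2.15% of all genes). Values of these markers with the GC trend removed are not given here, though TRAM2-KO1 libraries B and C carry that trend. KRT17 (0.27, adjusted p = 0.00115) and TRIM29 (0.60, adjusted p = 0.000571) rose with TRAM2-KO2, while ITGA6 (-0.16, adjusted p = 0.0135) fell. With TRAM2-KO1 ITGA6 was at -0.36 (adjusted p = 3.76e-05). None of 8 luminal markers tested passed, at a summed 2149 to 2224 TPM in TRAM2-KO2, 2053 to 2207 TPM in TRAM2-KO1 and 2001 to 2071 TPM in control. Fibroblast markers summed to at most 3.31 TPM and endothelial markers to at most 1.07 TPM in a library, and of the immune markers CD68 alone passed the filter. In bulk RNA, fewer cells of a type and less RNA per cell cannot be told apart, and whether a change in the mix of basal and suprabasal cells took part in the values above was not tested.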

How the data were processed

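Reads were processed by the authors with cutadapt and Salmon. For both tools the version, and for Salmon the transcript release and genome build, were not given in the sources used here. The deposited values per transcript were estimated counts that the authors made with Salmon, without normalisation. TPM were scaled by the authors over all transcripts of a library, and effective lengths were deposited beside them. The study's methods name a stranded kit and the labels a TruSeq RNA kit, and the strand setting of the quantification is not given. Estimated counts were summed per gene symbol of GENCODE release 44 (GRCh37; 97.5% of 226030 transcripts and at least 98.4% of reads matched) and rounded. The study tested genes with DESeq2. Here edgeR 4.0.16 (R 4.3.3; quasi-likelihood, TMM, filterByExpr with a minimum of 10 reads, prior count 2) was fitted to all 9 libraries with 3 groups, two-sided, with Benjamini-Hochberg adjustment over all 15109 genes tested, and DESeq2 1.42.0 and limma 3.58.1 served as alternatives. CPM are counts over TMM-scaled library size. SE and intervals were derived from edgeR's F statistic (log2 fold change over the square root of F). Removing the GC trend used a loess offset per library (span 0.5). The pipeline was tested on simulated data. Intervals are at 95% and a count of 0 allows 3 reads. Named genes were TRAM2, the 10 members, up to 4 genes per list past the test with a guide, marker genes and the 2 genes most like each member of at least 5 CPM. KRT10, TGM2, TGM4 and the tested envelope precursors were named outside this rule after their values were seen. Some genes that this rule names are not reported here. Members and lists were chosen with earlier results of these data known.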

Additional observations from a re-analysis of the deposited data

Results flagged for a closer look

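The effects of the 2 guides against the same control libraries differed for 5 of the 7 genes, by edgeR's test of the difference itself. TRAM2-KO2 exceeded TRAM2-KO1 by 0.69 for PADI2, 0.61 for A2ML1, 0.38 for PI3, 0.93 for EPPK1 and 0.17 for IVL on the log2 scale, while for TRAM2 the difference was 0.01 (95% interval -0.06 to 0.08, adjusted p = 0.879). The difference passed the test in all 20 alternative settings for A2ML1, in 19 of 20 for PADI2, in 15 of 20 for PI3, in 8 of 18 for EPPK1 and in 5 of 20 for IVL. TRAM2-KO1 libraries B and C carry the trend with GC content given above. The IVL difference was 0.05 with that trend removed and 0.16 with TRAM2-KO1 library A alone. Values of the other genes in these settings are given above where reported. Whether the trend took part in any of these differences was not tested. No group held enough libraries for a check of single outlying values.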

How the results depend on the processing

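With TRAM2-KO2 the count of the 10 genes past the test was 3 in the fit reported and stayed within 1.5 times that in every alternative. With TRAM2-KO1 it was 1, and became 2 with no filter on low counts or with a mean of at least 5 CPM, and 0 with DESeq2, transcript length offsets, only the 2 groups compared, limma on log2(TPM + 0.1) or TRAM2-KO1 library A alone. For the mean of both guides it was 2, became 3 with no filter on low counts, and was 1 with length offsets or limma. Between the guides it was 5, and became 6 with no filter and 4 with the GC trend removed, where IVL no longer passed. The count was also 4 with DESeq2 or a mean of at least 5 CPM, settings in which EPPK1 had no adjusted p. It became 3 with the GC trend removed and the replicate block, and 2 with length offsets, only the 2 groups compared or limma. Leaving out 1 library at a time gave 0 to 2 with TRAM2-KO1 (2 without TRAM2-KO1 A, 0 without TRAM2-KO1 B or C or any control library), 1 to 2 for the mean (1 without control B or C) and 2 to 6 between the guides (6 without TRAM2-KO1 A, 2 without TRAM2-KO1 B).

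Over all genes, 449 passed with TRAM2-KO1, against 942 with no filter, 260 with TRAM2-KO1 library A alone, 112 with length offsets, 84 with limma and 249 to 2118 leaving out 1 library (2118 without TRAM2-KO1 A). With TRAM2-KO2 663 passed, against 1010 with TRAM2-KO1 library A alone, 1077 with the GC trend removed, 1099 with the replicate block added to that, 167 with length offsets, 1061 with only the 2 groups compared, 110 with limma and 345 to 852 leaving out 1 library. For the mean of both guides 599 passed, against 163 with length offsets, 105 with limma and 301 to 1176 leaving out 1 library (1176 without TRAM2-KO1 A). Between the guides 386 passed, against 584 with DESeq2, 984 with no filter, 154 with TRAM2-KO1 library A alone, 622 with the GC trend removed and the replicate block, 47 with length offsets, 136 with only the 2 groups compared, 38 with limma and 130 to 1998 leaving out 1 library (1998 without TRAM2-KO1 A). The causes were not tested.

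The labels do not say whether the library letters pair the samples. Deviations of libraries with the same letter correlated between -0.23 and 0.25, and those with different letters between -0.32 and 0.29. With the letter as a replicate block, 463 genes passed with TRAM2-KO1, 655 with TRAM2-KO2, 611 for the mean and 402 between the guides. Among the 10 genes the replicate block moved IVL (0.17, adjusted p = 0.0562) and TGM1 (0.31, adjusted p = 0.0438) to the other side of the threshold between the guides, and changed no other call.

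Signs turned as follows, on the log2 scale. With the GC trend removed, with TRAM2-KO1 TGM1 was at 0.00366, PI3 at 0.0348 (0.0335 with the replicate block as well) and CEBPB at 0.0213 (0.0218), for the mean IVL at 0.00115 (0.000759), and between the guides PADI1 at -0.0448 (-0.0458). With length offsets GRHL2 was at -0.0389 with TRAM2-KO2 and -0.53 for the mean (-0.46 with limma), and TGM1 at -0.00182 for the mean (-0.00836 with limma). TRAM2 was at -0.04001 between the guides with TRAM2-KO1 library A alone. Leaving out 1 library gave -0.0785 to 0.00988 for PI3 with TRAM2-KO1, -0.11 to 0.0923 for EPPK1 and -0.00559 to 0.0746 for TGM1 in the mean, and -0.00371 to 0.0413 for TRAM2 between the guides. Depth limits SPRR1A, SPRR1B and SPRR3, where a few reads per library leave room for changes that could not be detected, and 3 libraries a group limit the rest. SPRR1A is limited also by the short model of 270 nt on which it was counted.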
